A study of Mus musculus with 24 samples.

Results

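The contrast described here asks, gene by gene, whether a mutant PIK3CA transgene goes with a different change in GFP-positive than in GFP-negative basal cells of the mouse mammary gland. It is a difference of effects: mutant minus control in GFP-positive basal cells, minus mutant minus control in GFP-negative basal cells. A positive value means that the mutant effect was higher in GFP-positive cells, by a larger rise there or by a fall in GFP-negative cells. It uses 12 of the 24 arrays of the study, 3 in each of 4 groups chosen by their labels, and covers every gene with a probe set of 1 symbol, 19937 genes in all. Arrays were taken by their labels and genes by their symbols. Where several probe sets measured a gene, the one with the highest mean over the 24 arrays was kept. The groups compared were chosen with earlier results of these data known.

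The 4 groups were mutant basal GFP-positive, control basal GFP-positive, mutant basal GFP-negative and control basal GFP-negative cells. Mutant mice carried Lgr5-creERT2, a tamoxifen-dependent Cre recombinase driven from Lgr5, together with the PIK3CA H1047R transgene, while control mice carried Lgr5-creERT2 alone. Mice of both genotypes were of mixed FVB/C57BL6 background, received tamoxifen and were sampled 4 weeks later, so recombinase and drug are shared by all groups. Each array holds amplified RNA of 250 cells sorted from pooled glands of 2 to 3 estrus-synchronised mice, from 1 of 3 independent sortings. Basal cells were gated as CD45 negative, CD24 low and Sca1 negative. GFP stands, per the labels, for Lgr5 expression, transgene expression or both, so a GFP-positive cell can owe its GFP to the transgene only in the mutant. What the GFP gate collects and what the transgene does to gene expression therefore cannot be told apart in this contrast. In addition, a change in the share of some cells and a change of RNA per cell cannot be told apart in sorted pools.

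PIK3CA encodes the p110-alpha catalytic chain of PI3K, the lipid kinase through which insulin, IGF and ERBB receptors activate AKT. H1047R is an activating substitution that occurs often in breast cancer. Active AKT holds FOXO transcription factors out of the nucleus, and FOXO target genes include several that feed back on the pathway. In the mammary gland, basal cells are the contractile, keratin 5 and 14 bearing layer that lies on the basement membrane, while luminal cells line the duct and include the progenitors that make milk. Lgr5, a receptor for R-spondins that strengthens Wnt signalling, marks a subset of basal cells.

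All values are log2 expression values as deposited, and a value under 4.60, the median over all genes and arrays, is called dim here. Levels are set against each other only within a gene. In the contrast, 1 unit on the log2 scale is a 2-fold difference between the effects. Genes are called at a Benjamini-Hochberg adjusted p under 0.05 in a limma fit of all 24 arrays, and errors of differences are standard errors with 3 arrays per group. The arrays of control basal GFP-positive cells differed in signal from the rest. The standard deviation of log2 values averaged 1.97 in mutant GFP-positive arrays, 1.86 in control GFP-positive arrays, 1.94 in mutant GFP-negative arrays and 1.91 in control GFP-negative arrays. Correlation between arrays of a group across genes was 0.975 to 0.979 in mutant GFP-positive cells and 0.934 to 0.941 in control GFP-positive cells. In GFP-negative cells it was 0.954 to 0.964 in the mutant and 0.954 to 0.959 in the control. No result of the contrast can be had without the control GFP-positive group, and its part in the results was not tested.

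The basal label fitted its defining markers. Krt5 and Krt14, the basal keratins, stood at mean log2 levels of 11.92 and 11.38 in mutant GFP-positive and 11.60 and 11.59 in control GFP-positive arrays. The GFP-negative arrays had 11.53 and 11.22 in the mutant and 11.67 and 11.38 in the control. Neither was called, with differences of 0.46 ± 0.61 for Krt5 (adjusted p = 0.767) and -0.05 ± 0.59 for Krt14 (adjusted p = 0.978). These errors use a spread shared with the luminal arrays and do not describe the basal arrays alone. For Krt5 the standard deviation was 0.03 to 0.16 in basal groups, against 0.52 and 1.41 in the mutant luminal groups. Every mutant GFP-positive array of Krt5 lay above the control GFP-positive and mutant GFP-negative arrays. The luminal keratins also had signal in the basal gates. Krt8 had a difference of 0.27 ± 0.30 (adjusted p = 0.713) and Krt18 one of -0.77 ± 0.49 (adjusted p = 0.494). Cd24a, which encodes the sorting antigen CD24, differed by 0.28 ± 0.30 (adjusted p = 0.70). Ptprc, which encodes CD45, was dim in every group, at mean levels between 4.14 and 4.35.

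The promoters of a pair of milk genes are shown first, since the milk list held the most called members of the gene lists described here. The lines give the 250 bases before the transcription start, 5′ to 3′ on the gene's strand, from RefSeq for mouse build GRCm38.p6. Capitals mark the only match to TTCNNNGAA, the core motif bound by STAT factors such as Stat5a, the prolactin-activated regulator of milk genes.
Csn2, chr5:87699426-87699675, minus strand: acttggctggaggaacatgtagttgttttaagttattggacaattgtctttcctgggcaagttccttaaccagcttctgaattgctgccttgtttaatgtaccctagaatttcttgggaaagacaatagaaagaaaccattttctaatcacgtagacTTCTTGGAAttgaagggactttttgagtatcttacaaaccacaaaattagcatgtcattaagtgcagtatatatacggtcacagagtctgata
Mfge8, chr7:79149061-79149310, minus strand: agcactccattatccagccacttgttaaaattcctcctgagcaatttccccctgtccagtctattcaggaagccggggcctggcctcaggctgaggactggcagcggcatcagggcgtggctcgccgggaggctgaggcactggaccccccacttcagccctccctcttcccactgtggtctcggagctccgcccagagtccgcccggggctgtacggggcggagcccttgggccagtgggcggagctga
In Csn2, which encodes beta-casein, the match begins 93 bases before the start. The window of Mfge8, a milk fat globule protein, holds no match. On both strands TTCNNNGAA was found in the windows of 1046 of the 15613 tested genes with an entry (6.7%). Among genes called higher it was in 4 of 115 (3.48%), and among genes called lower in 2 of 43 (4.65%). A FOXO motif, GTAAACA, was found in 2.72% of all windows, in 2 of 115 genes called higher (Il33 and Mdm2) and in 1 of 43 called lower (Junb). Neither motif was more common among called genes than among all genes, and a match is only a description of these letters.

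Pik3ca, the mouse gene of the targeted kinase, was called higher. It had log2 levels of 7.94, 7.84 and 8.42 in mutant GFP-positive arrays and 6.86, 7.29 and 6.78 in control GFP-positive arrays. In GFP-negative arrays it had 7.25, 7.98 and 7.05 in the mutant and 7.93, 7.55 and 7.57 in the control. The GFP-positive groups did not overlap and the GFP-negative groups did. The mutant effect was 1.09 in GFP-positive and -0.26 in GFP-negative cells, a difference of 1.35 ± 0.30 (adjusted p = 0.0361). Leaving out any 1 of 8 arrays ended the call (adjusted p 0.0511 to 0.0873), the exceptions being replicate 2 of both GFP-positive groups and of the mutant GFP-negative group, and replicate 3 of the control GFP-negative group. Quantile normalization, array weights and a trend and robust variance prior also ended it (adjusted p = 0.071, 0.0752 and 0.065). So did a replicate block (0.0508) and a fit of the 12 basal arrays alone (0.239). Whether the probe set reads the transgene's RNA is not stated, so the value is not a measure of transgene activity.

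Lgr5 went the other way. Its levels were 7.29, 6.08 and 5.53 in mutant GFP-positive arrays, against 9.996, 9.26 and 9.14 in control GFP-positive arrays. GFP-negative arrays had 7.18, 7.29 and 7.55 in the mutant and 8.83, 8.34 and 7.04 in the control. Control GFP-positive cells thus carried the highest levels, and 2 of 3 mutant GFP-positive arrays lay below every other basal array. The difference of effects was -2.43 ± 0.56 (adjusted p = 0.0424), made of a mutant effect of -3.16 in GFP-positive and -0.73 in GFP-negative cells. Read across the GFP gate, Lgr5 was 1.04 lower in GFP-positive than in GFP-negative cells of the mutant and 1.40 higher in those of the control. The call ended without any 1 of 8 arrays (adjusted p 0.056 to 0.103); it held without mutant GFP-positive replicate 1, control GFP-positive replicates 2 and 3, and control GFP-negative replicate 1. Centring each array on its median and array weights ended it too (adjusted p = 0.0518 and 0.0852), as did a fit of the 12 basal arrays alone (0.292).

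Over all genes, 154 were called higher (0.772% of 19937) and 60 lower (0.301%), together 1.07%. The difference was at least 2-fold in 133 of those called higher and 34 of those called lower. Its median was 1.94 over the genes called higher, with a range of 0.49 to 5.80, and -1.16 over those called lower, with a range of -0.35 to -5.37. The median over all genes was -0.07, and 0.00 over the 11434 genes with a mean above the dim threshold in some basal group. Leaving out control GFP-positive replicate 2 raised the counts to 302 and 286, of which 150 and 58 were among the genes called with it. The lower count fell to 32, 37 and 37 without mutant GFP-positive replicate 1, 2 or 3, and to 38 without control GFP-negative replicate 2. A fit of the 12 basal arrays alone has fewer degrees of freedom and also takes the spread from those arrays only. That spread can differ from the one shared with luminal arrays. Lgr5 had standard deviations of 0.19 to 0.92 in basal groups and 0.11 to 0.27 in luminal groups, while Krt5 varied most in mutant luminal groups. The basal fit called 46 higher and 7 lower, and ended the call of 31 of the 44 called genes that the naming rule takes. The other 13, which kept it, were Elovl4, Arhgap24, Fndc1, Il33, Prelp, Scn7a, Rgs16, Mfge8, Ehf, Pik3r3, Jag1, Col4a5 and Nid1.

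**Figure D1:**
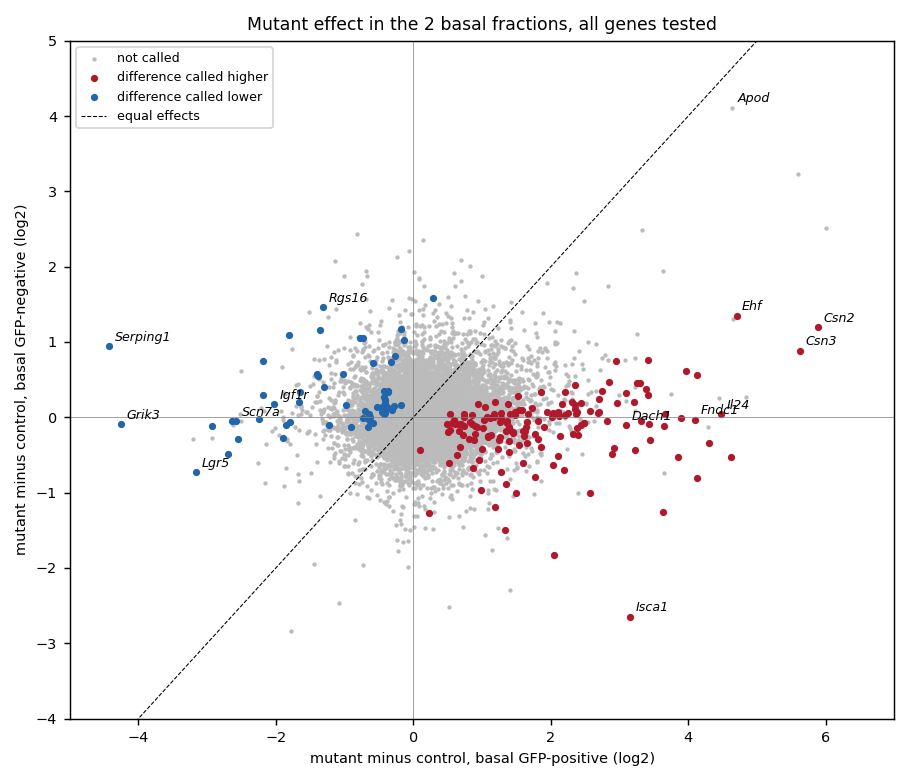
Mutant minus control log2 difference in basal GFP-positive cells (horizontal) and basal GFP-negative cells (vertical) for all 19937 genes, with genes called for the difference of effects in red (154 higher) and blue (60 lower). The called genes spread mainly along the horizontal axis, and Apod lies near the dashed line of equal effects.

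The calls rested on the GFP-positive comparison far more than on the GFP-negative one. Among genes called higher, the median mutant effect was 1.65 in GFP-positive and -0.09 in GFP-negative cells, and among those called lower it was -0.72 and 0.15. Those medians use the same arrays as the contrast and are a description of the called genes. Per group, mutant GFP-positive cells lay farthest from the mean of the other 3 groups in 105 of the 154 genes called higher, always above it, and control GFP-positive cells in 45, always below it. Of the 60 called lower, mutant GFP-positive cells lay farthest in 30, below the rest, and control GFP-positive cells in 21, above the rest. As shares, mutant GFP-positive cells were the farthest group in 68.2% of genes called higher and 50% of those called lower, against 28.8% of all genes. Control GFP-positive cells were the farthest group in 29.2% and 35%, against 42.3% of all genes. For mutant GFP-negative cells the shares were 1.3% and 13.3%, against 14.6%, so that among genes called lower the share was near that of all genes. For control GFP-negative cells they were 1.3% and 1.67%, against 14.3%.

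Levels of the called genes come from the arrays that gave the calls, so they describe those genes and are not separate evidence. In mutant GFP-positive arrays the median level of the genes called higher was 8.07, against 5.49 in control GFP-positive, 5.98 in mutant GFP-negative and 6.29 in control GFP-negative arrays. Only 5 of the 154 were dim in mutant GFP-positive cells, whereas 44, 41 and 35 were dim in the other 3 groups in the same order. Over all genes 50.3% were dim in mutant GFP-positive cells, and 46.8%, 49.9% and 49.1% in the other 3 groups. Where a group is dim, the size of a difference is compressed by the background of the array.

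Genes near background in 3 groups and well above it in mutant GFP-positive cells gave the smallest p-values. Arhgap24, a Rac-specific GTPase-activating protein that acts on cell shape, had levels of 8.18, 8.40 and 7.86 in mutant GFP-positive arrays and 4.32, 4.15 and 4.41 in control GFP-positive arrays. Its GFP-negative levels were 4.59, 4.66 and 4.14 in the mutant and 5.22, 4.67 and 5.08 in the control. No other array came within 2 units of the mutant GFP-positive ones, and the difference was 4.38 ± 0.29 (adjusted p = 7.89e-08). Fndc1, which encodes a fibronectin type III domain protein, had 8.74, 9.20 and 7.92 in mutant GFP-positive arrays and 4.48, 4.60 and 4.49 in control GFP-positive arrays. It had 4.30, 4.35 and 4.46 in mutant and 4.40, 4.38 and 4.43 in control GFP-negative arrays, for a difference of 4.13 ± 0.27 (adjusted p = 7.89e-08). The pattern of both genes is a level in 1 group only above the rest.

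Dach1, chosen after its values were seen because it had the smallest p of all genes, is a transcriptional corepressor of the dachshund family. It had 7.45, 7.35 and 7.50 in mutant GFP-positive arrays and 4.33, 4.37 and 4.31 in control GFP-positive arrays. Its GFP-negative levels were 4.27, 4.33 and 4.21 in the mutant and 4.46, 4.20 and 4.47 in the control. The difference was 3.20 ± 0.14 (adjusted p = 1.73e-10). Lipk, a member of the acid lipase family, and Alox12e, an epidermal-type lipoxygenase, were chosen in the same way and followed with 3.52 ± 0.17 (adjusted p = 9.96e-10) and 3.37 ± 0.23 (adjusted p = 1.29e-07). All 5 of these genes were called under each of the 20 alternatives tried, as were 39 of the 154 genes called higher.

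Cytokines were among the largest differences. Il33, an alarmin held in the nucleus of epithelial cells, had 9.40, 8.21 and 8.53 in mutant GFP-positive arrays and 4.66, 5.03 and 4.76 in control GFP-positive arrays. In GFP-negative arrays it had 4.54, 4.44 and 4.54 in the mutant and 4.32, 4.48 and 4.75 in the control. The mutant effects were 3.89 and -0.01, a difference of 3.90 ± 0.58 (adjusted p = 0.00149). Il24, a cytokine of the IL-10 family, was more variable within the mutant GFP-positive group, at 8.65, 10.37 and 7.13, against 4.40, 4.21 and 4.11 in control GFP-positive arrays. It was dim in every GFP-negative array, at 3.90, 3.91 and 4.03 in the mutant and 3.88, 3.88 and 3.97 in the control, and its difference was 4.44 ± 0.91 (adjusted p = 0.0204, or 0.0693 with array weights). Ccl7, a monocyte chemoattractant, is of another kind. With 8.82, 9.29 and 8.35 in mutant GFP-positive, 4.97, 7.76 and 7.61 in control GFP-positive, 5.59, 5.84 and 4.21 in mutant GFP-negative and 7.15, 7.37 and 6.62 in control GFP-negative arrays, its mutant effects were 2.04 and -1.83. The difference of 3.88 ± 0.79 (adjusted p = 0.0211) was lost without mutant GFP-positive replicate 2, mutant GFP-negative replicate 3 or control GFP-negative replicate 2 (adjusted p 0.0532 to 0.0587).

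Other genes with large differences were carried in part by low control GFP-positive arrays. Elovl4, which elongates very long chain fatty acids, had 8.83, 8.45 and 8.81 in mutant GFP-positive arrays, against 4.75, 6.12 and 4.35 in control GFP-positive arrays. It had 6.92, 7.55 and 5.48 in mutant and 8.01, 8.19 and 7.52 in control GFP-negative arrays. Control GFP-negative arrays were thus just below the mutant GFP-positive ones, and the difference was 4.88 ± 0.61 (adjusted p = 0.000235). Isca1, which takes part in mitochondrial iron-sulfur cluster assembly, had the largest difference of the named genes and the widest spread. Its levels were 9.29, 9.36 and 8.56 in mutant GFP-positive, 5.57, 7.95 and 4.22 in control GFP-positive, 7.90, 4.70 and 7.44 in mutant GFP-negative and 8.87, 9.65 and 9.46 in control GFP-negative arrays. Mutant GFP-positive and control GFP-negative arrays overlapped and the other groups were lower, so that the difference of 5.80 ± 1.30 (adjusted p = 0.0374) came from effects of 3.16 and -2.65. It was lost without any 1 of 9 arrays (adjusted p 0.0547 to 0.0854), the exceptions being control GFP-positive replicate 2 and mutant GFP-negative replicates 1 and 3.

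Them5, a mitochondrial thioesterase, and Sostdc1, a secreted antagonist of BMP and Wnt signalling, had the same wide spread. In Them5 the levels were 9.97, 9.45 and 9.65 in mutant GFP-positive and 4.34, 6.40 and 4.47 in control GFP-positive arrays. GFP-negative arrays had 8.08, 7.32 and 4.69 in the mutant and 7.17, 8.99 and 5.54 in the control, which overlap. The mutant effects of Them5 were 4.62 and -0.53, a difference of 5.16 ± 1.16 (adjusted p = 0.0394). In Sostdc1 the levels were 10.12, 10.11 and 10.42 in mutant GFP-positive and 4.97, 8.40 and 4.88 in control GFP-positive arrays. GFP-negative arrays had 8.46, 8.16 and 5.77 in the mutant and 9.14, 7.44 and 8.23 in the control, which overlap. The mutant effects of Sostdc1 were 4.13 and -0.81, a difference of 4.94 ± 1.06 (adjusted p = 0.0271). Replicate 2 was the high array of the control GFP-positive group in both. Each call ended when single arrays were left out, 9 of the 12 for Them5 (adjusted p 0.05 to 0.089) and 7 of the 12 for Sostdc1 (adjusted p 0.0557 to 0.0684). For Them5 the exceptions were control GFP-positive replicate 2, mutant GFP-negative replicate 1 and control GFP-negative replicate 3. For Sostdc1 they were control GFP-positive replicate 2, mutant GFP-negative replicates 1 and 2, and control GFP-negative replicates 2 and 3.

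**Figure D2:**
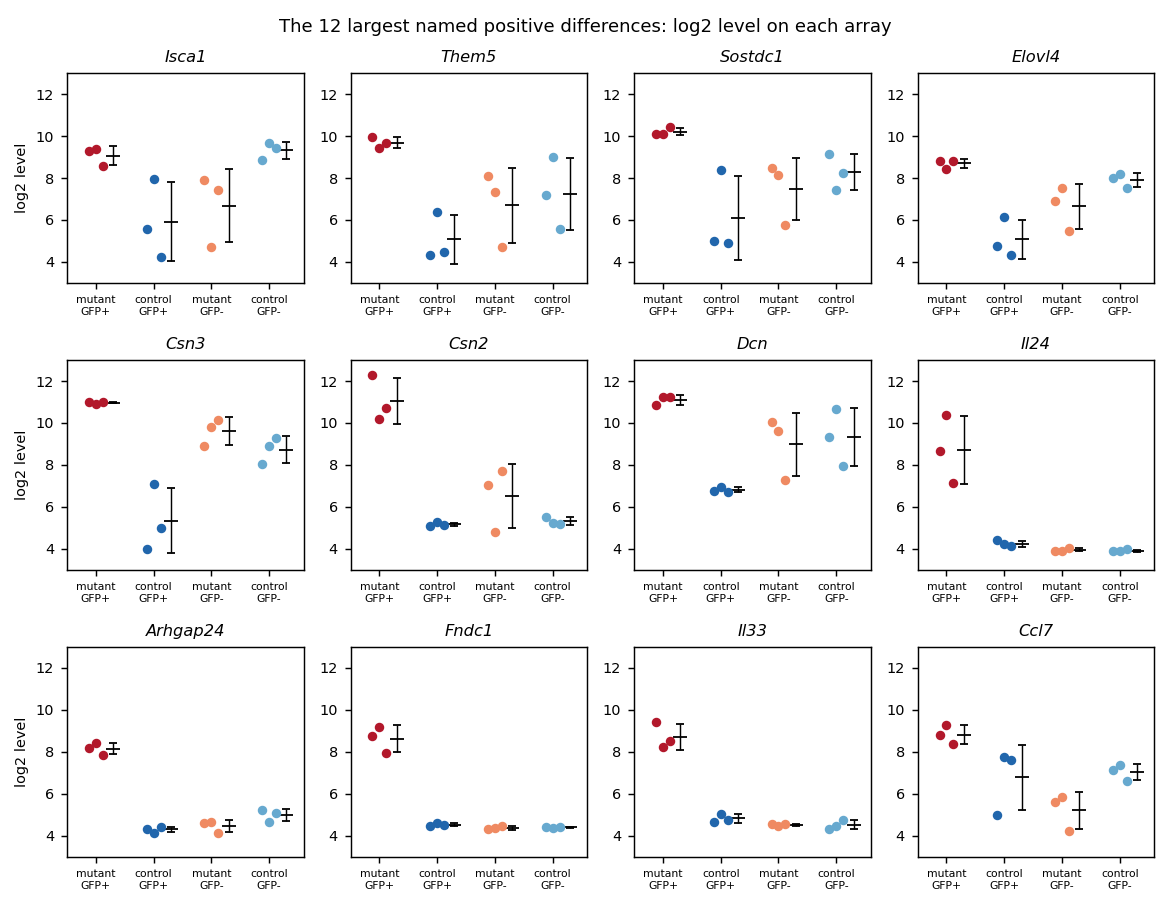
Log2 level on each array (points) with the mean and standard deviation of 3 arrays (bars) in mutant GFP-positive, control GFP-positive, mutant GFP-negative and control GFP-negative basal cells, for the 12 named genes with the largest positive difference of effects. Arhgap24, Fndc1, Il24 and Il33 stand high in mutant GFP-positive cells alone, while Elovl4, Isca1 and Csn3 have their lowest mean in control GFP-positive cells.

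Milk genes held 4 members called higher and 0 called lower among 21 measured, with a median difference of 0.41. Over all genes 0.772% were called higher and 0.301% lower, which is the background for each list below. Csn2 had 12.28, 10.17 and 10.70 in mutant GFP-positive arrays and 5.10, 5.26 and 5.11 in control GFP-positive arrays, and its promoter window is given above. Its GFP-negative levels were 7.02, 4.81 and 7.71 in the mutant and 5.53, 5.24 and 5.18 in the control, so that 2 of 3 mutant GFP-negative arrays were also above the controls. The difference was 4.70 ± 0.87 (adjusted p = 0.0108). Csn3, kappa-casein, had 10.99, 10.93 and 11.01 in mutant GFP-positive arrays, against 3.99, 7.07 and 4.98 in control GFP-positive arrays. Unlike Csn2 it stood high in GFP-negative cells of both genotypes, at 8.88, 9.82 and 10.14 in the mutant and 8.04, 8.89 and 9.27 in the control, with a difference of 4.75 ± 0.72 (adjusted p = 0.002).

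Mfge8 repeated the order seen in Csn3. It had 11.43, 11.43 and 11.28 in mutant GFP-positive, 8.26, 8.26 and 7.45 in control GFP-positive, 9.77, 9.83 and 10.06 in mutant GFP-negative and 9.71, 9.95 and 8.87 in control GFP-negative arrays. Control GFP-positive cells were lowest and mutant GFP-positive cells highest, with no overlap, and the difference was 3.01 ± 0.54 (adjusted p = 0.00762). Xdh, the xanthine oxidoreductase needed for milk fat droplet secretion, was the other member called, at 2.46 ± 0.48 (adjusted p = 0.0156). Csn1s1, Csn1s2a and Wfdc18 had differences of 2.37, 4.42 and 3.49 that were not called, with adjusted p-values of 0.258, 0.206 and 0.164. Of the 21 members 6 were negative, with Glycam1, a milk mucin, the farthest at -2.28 (adjusted p = 0.531). The median of the list lay between 0.28 and 1.92 over the alternatives.

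Of 20 luminal progenitor and alveolar genes, 1 was called higher and 0 lower, against 0.772% and 0.301% of all genes. The called member was Ehf, an epithelial ETS factor of luminal cells. It had 10.26, 9.90 and 9.82 in mutant GFP-positive arrays and 5.47, 5.58 and 4.81 in control GFP-positive arrays. Its GFP-negative levels were 6.59, 6.69 and 6.05 in the mutant and 4.53, 5.92 and 4.83 in the control. The mutant arrays lay above the controls in both fractions, and the effects were 4.70 and 1.35, a difference of 3.35 ± 0.42 (adjusted p = 0.000239). Elf5, the alveolar ETS factor, had 6.85, 6.11 and 9.12 in mutant GFP-positive arrays, against 4.09, 3.98 and 4.35 in control GFP-positive arrays. It had 4.18, 5.15 and 5.32 in mutant and 4.12, 4.03 and 4.14 in control GFP-negative arrays, and its difference of 2.43 ± 1.08 was not called (adjusted p = 0.325). Of 19 measured luminal keratins and junction genes, 1 was called, Cldn3, a tight junction claudin, with a difference of -1.80 ± 0.41 (adjusted p = 0.0404) and effects of -0.74 and 1.06. That call was lost without any 1 of 6 arrays (adjusted p 0.0568 to 0.0978) and with arrays centred on their median or weighted (adjusted p = 0.0551 and 0.0679); the 6 were mutant GFP-positive replicates 1 and 3, control GFP-positive replicate 1, mutant GFP-negative replicates 2 and 3 and control GFP-negative replicate 2. None of 13 hormone-sensing luminal genes was called by limma, and 1 of them, Tbx3, had an unadjusted p under 0.05. The list medians were 0.08 for the progenitor list, -0.05 for keratins and junctions, and -0.30 for hormone-sensing genes; the first turned negative and the second positive in 4 alternatives each.

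Not every mutant effect differed between the fractions. Apod, a secreted lipocalin, had 8.88, 9.73 and 8.91 in mutant GFP-positive arrays and 4.32, 4.97 and 4.32 in control GFP-positive arrays. It was also high in GFP-negative cells of the mutant, at 8.01, 8.82 and 9.37, against 4.02, 5.01 and 4.83 in the control. The effects of 4.64 and 4.11 gave a difference of 0.52 ± 0.48 that was not called (adjusted p = 0.643).

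In the PI3K pathway, 2 of 25 members were called higher and 1 lower, against 0.772% and 0.301% of all genes. The list median was 0.10 and turned negative in 1 alternative. Beside Pik3ca the higher one was Pik3r3, a regulatory subunit of the kinase. It had 6.81, 7.48 and 7.41 in mutant GFP-positive arrays and 5.02, 4.65 and 4.87 in control GFP-positive arrays. With 4.75, 4.95 and 4.28 in mutant and 4.85, 5.03 and 4.80 in control GFP-negative arrays, it stood above the rest in mutant GFP-positive cells alone, and its difference was 2.63 ± 0.50 (adjusted p = 0.013). Igf1r, the IGF1 receptor, was the member called lower. Its levels were 5.06, 5.37 and 4.97 in mutant GFP-positive, 7.79, 6.75 and 6.93 in control GFP-positive, 6.45, 6.87 and 7.75 in mutant GFP-negative and 7.40, 6.63 and 6.53 in control GFP-negative arrays. Only the mutant GFP-positive arrays were low, without overlap, and the difference was -2.20 ± 0.44 (adjusted p = 0.0183). The adaptors Irs1 and Irs2, which couple insulin and IGF receptors to PI3K, had differences of -1.99 ± 0.63 (adjusted p = 0.157) and -0.71 ± 0.32 (adjusted p = 0.32).

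Downstream of AKT, 1 of 24 FOXO factors and targets was called higher and 0 lower, against 0.772% and 0.301% of all genes. The list median was 0.30, against -0.07 over all genes and 0.00 over those not dim in every basal group. The called member was Sesn3, a stress-induced inhibitor of mTORC1 signalling, with 9.64, 9.12 and 9.36 in mutant GFP-positive and 5.09, 6.69 and 6.10 in control GFP-positive arrays. It had 7.55, 7.22 and 7.08 in mutant and 6.36, 6.42 and 6.76 in control GFP-negative arrays. Mutant arrays exceeded control arrays in both fractions, and the difference was 2.65 ± 0.56 (adjusted p = 0.0262). The call ended without any 1 of 6 arrays (adjusted p 0.0523 to 0.071), namely mutant GFP-positive replicates 1 and 3, control GFP-positive replicate 1, mutant GFP-negative replicates 2 and 3 and control GFP-negative replicate 3.

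Among growth factors and their binding proteins, 1 of 13 ERBB receptors and ligands was called, where 1.07% of all genes were. That member was Nrg1, the neuregulin that binds Erbb3 and Erbb4. Its levels were 10.11, 10.69 and 10.56 in mutant GFP-positive and 6.57, 7.84 and 7.06 in control GFP-positive arrays. In GFP-negative cells they were 7.05, 7.86 and 6.69 in the mutant and 6.35, 7.27 and 6.61 in the control, which overlap. The difference was 2.84 ± 0.57 (adjusted p = 0.0189), and its call was lost without mutant GFP-negative replicate 3 (2.58, adjusted p = 0.0535) or control GFP-negative replicate 2 (2.57, adjusted p = 0.0517). Of 12 IGF pathway genes, Igfbp2 and Igfbp4, secreted proteins that bind IGFs, were called higher, and Igf1r lower as above. Over all genes 0.772% were called higher and 0.301% lower. Igfbp2 had 10.36, 9.56 and 10.58 in mutant GFP-positive arrays, against 7.79, 8.24 and 7.74 in control GFP-positive arrays. Its GFP-negative levels of 10.38, 9.74 and 9.76 in the mutant and 10.28, 10.14 and 9.29 in the control overlapped the mutant GFP-positive ones, and control GFP-positive arrays lay below all others (difference 2.19 ± 0.37, adjusted p = 0.00539). Igfbp4 differed by 2.80 ± 0.57 (adjusted p = 0.0204), and by 2.70 without mutant GFP-positive replicate 1, where the call ended at adjusted p = 0.0549.

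Notch genes had 2 of 24 members called higher and 0 lower, against 0.772% and 0.301% of all genes. The list median was -0.06 and turned positive under median centring. Jag1, a Notch ligand, had 9.82, 9.90 and 9.68 in mutant GFP-positive arrays and 7.14, 7.30 and 6.72 in control GFP-positive arrays. The GFP-negative arrays had 7.24, 7.72 and 7.50 in the mutant and 7.69, 7.02 and 6.71 in the control. Jag1 was thus high in 1 group and like in the other 3, with a difference of 2.40 ± 0.34 (adjusted p = 0.00111). Numb, an inhibitor of Notch signalling, had 7.95, 7.998 and 7.91 in mutant GFP-positive and 6.55, 7.14 and 6.48 in control GFP-positive arrays, with 7.12, 7.40 and 8.01 in mutant and 8.22, 7.56 and 8.02 in control GFP-negative arrays. Its difference of 1.65 ± 0.35 (adjusted p = 0.0254) came with a low control GFP-positive group, and it was lost without any 1 of 8 arrays (adjusted p 0.0505 to 0.0647), all but mutant GFP-positive replicate 3, control GFP-positive replicate 2, mutant GFP-negative replicate 3 and control GFP-negative replicate 2. Notch1 itself had a difference of 1.43 ± 0.40 that was not called (adjusted p = 0.112) and was called without control GFP-negative replicate 3 (1.70, adjusted p = 0.0446).

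Matrix genes had 2 of 21 members called higher and 0 lower, against 0.772% and 0.301% of all genes. They had the largest list median, 0.59, which stayed between 0.42 and 0.78 over the alternatives. Nid1, the basement membrane linker nidogen-1, had 8.48, 8.49 and 8.77 in mutant GFP-positive arrays and 4.92, 4.72 and 5.16 in control GFP-positive arrays. Its GFP-negative levels were 5.43, 4.78 and 4.76 in the mutant and 4.92, 5.54 and 4.87 in the control, and the difference was 3.77 ± 0.65 (adjusted p = 0.00619). Col4a5, a type IV collagen chain of basement membranes, had 7.90, 7.96 and 8.12 in mutant GFP-positive arrays and 6.61, 6.54 and 6.49 in control GFP-positive arrays. It had 6.09, 6.23 and 6.30 in mutant and 6.24, 6.76 and 6.26 in control GFP-negative arrays, and its difference was 1.66 ± 0.16 (adjusted p = 1.51e-05). In both genes mutant GFP-positive arrays lay above all others. Among matrix genes called lower outside this list, Prelp, a leucine-rich proteoglycan, differed by -2.59 ± 0.54, and Col14a1, a fibril-associated collagen chosen after its values were seen, by -1.61 ± 0.17 (adjusted p = 3.85e-05).

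**Figure D3:**
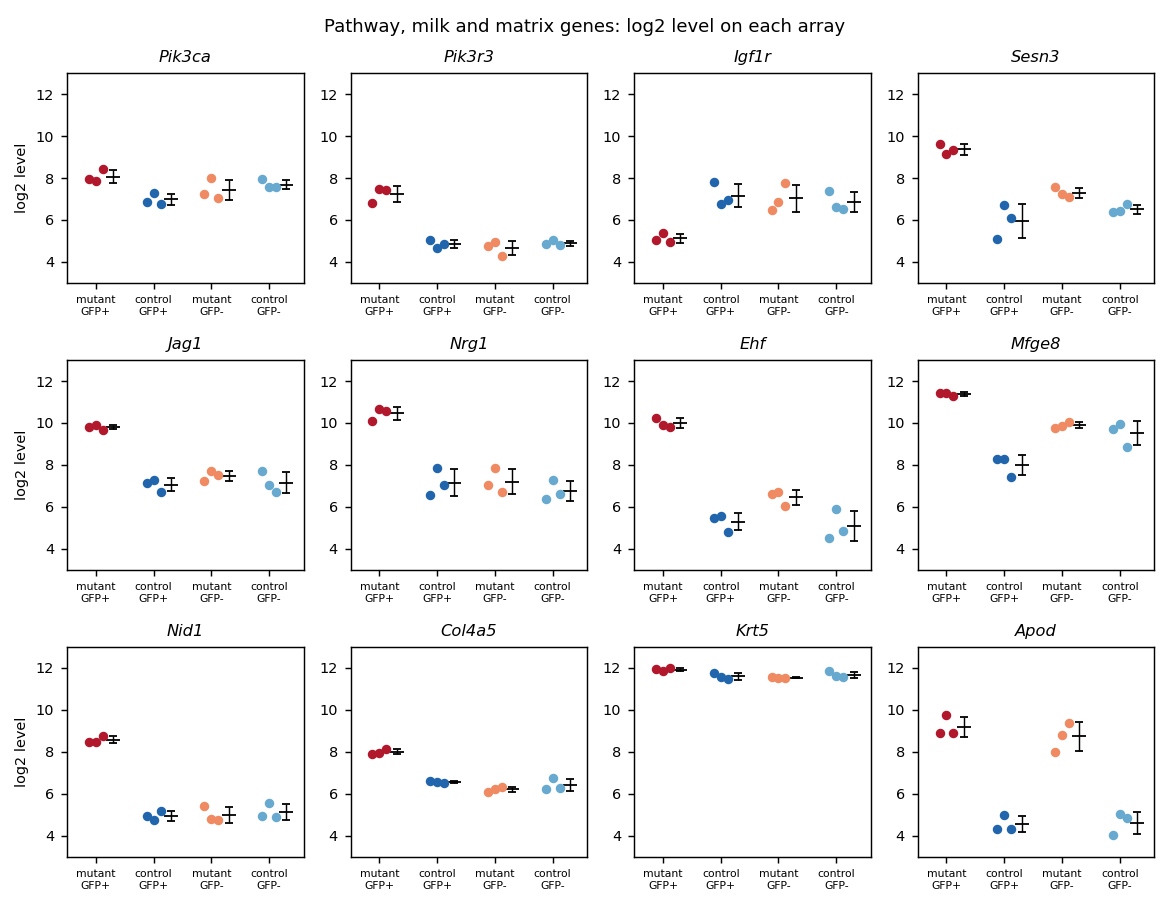
Log2 level on each array (points) with the mean and standard deviation of 3 arrays (bars) in the 4 basal groups, for genes of the PI3K, FOXO, Notch, ERBB, milk and matrix lists and for Ehf, Krt5 and Apod. Pik3r3, Jag1, Nid1 and Col4a5 are high in mutant GFP-positive cells, Igf1r is low there, Krt5 is high in all 4 groups, and Apod is high in both mutant groups.

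Serping1, the inhibitor of the complement C1 proteases, had the largest negative difference of all genes called. Its levels were 4.36, 4.04 and 3.92 in mutant GFP-positive arrays and 8.67, 8.76 and 8.16 in control GFP-positive arrays. In GFP-negative cells it had 5.02, 9.08 and 8.53 in the mutant and 6.97, 5.69 and 7.15 in the control, a wide spread within the mutant. The difference was -5.37 ± 1.10 (adjusted p = 0.0208), and it was lost without mutant GFP-negative replicate 2 or 3 or control GFP-negative replicate 2 (adjusted p 0.0511 to 0.0585). Serping1 was the 1 of 12 complement genes called, where 1.07% of all genes were called.

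Grik3, a kainate-type glutamate receptor subunit, had 5.50, 5.58 and 4.90 in mutant GFP-positive arrays and 9.62, 9.57 and 9.56 in control GFP-positive arrays. Its levels in GFP-negative arrays were 7.58, 9.22 and 10.15 in the mutant and 9.90, 8.84 and 8.50 in the control. The difference was -4.16 ± 0.62 (adjusted p = 0.00169). Scn7a, a sodium channel of the voltage-gated family that senses sodium, had 7.85, 8.38 and 7.97 in mutant GFP-positive and 10.70, 10.50 and 10.73 in control GFP-positive arrays, with 9.85, 10.62 and 11.09 in mutant and 10.52, 10.57 and 10.64 in control GFP-negative arrays. For both genes the mutant GFP-positive arrays lay below every other basal array, and the difference of Scn7a was -2.52 ± 0.29 (adjusted p = 9.92e-05). Scn7a, Col14a1 and Arhgap42 were the 3 genes called lower under each alternative; the last 2 were chosen after their values were seen.

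Gfra2, a receptor for neurturin, and Rasa3, a GTPase-activating protein for Ras and Rap, differed by -2.27 ± 0.44 (adjusted p = 0.016) and -2.49 ± 0.44 (adjusted p = 0.00751). Dpysl2, a microtubule-binding protein of axon guidance, had a difference of -2.93 ± 0.51 (adjusted p = 0.00619), and Popdc2, a cyclic AMP binding membrane protein, one of -2.51 ± 0.49 (adjusted p = 0.0168). All 4 had a mutant effect of -1.35 or below in GFP-positive cells. In GFP-negative cells the effect was 1.16 for Popdc2, 0.75 for Dpysl2, 0.30 for Rasa3 and -0.28 for Gfra2. The difference of Popdc2 thus came from effects of -1.35 and 1.16. Cpxm2, a carboxypeptidase-like protein, Adamts5, an aggrecan-cleaving protease, and Rgs16, a regulator of G protein signalling, had differences of -2.81, -2.91 and -2.78. Rgs16 had 6.09, 6.50 and 6.60 in mutant GFP-positive and 7.08, 8.09 and 7.97 in control GFP-positive arrays. With 7.30, 7.59 and 7.62 in mutant and 6.06, 6.19 and 5.86 in control GFP-negative arrays, it was low in control GFP-negative cells too, so that the effects were -1.32 and 1.46. In Adamts5 too the control GFP-negative mean was the lowest of the 4 basal groups, with 4.91, 4.70 and 5.25 in mutant GFP-positive, 6.60, 5.82 and 7.88 in control GFP-positive, 5.93, 4.80 and 6.55 in mutant GFP-negative and 4.27, 4.91 and 4.80 in control GFP-negative arrays. Without mutant GFP-positive replicate 1 or 2 or control GFP-negative replicate 1, Cpxm2 and Adamts5 lost their calls, as did Cpxm2 without control GFP-positive replicate 3 and Adamts5 without mutant GFP-negative replicate 3 (adjusted p 0.0506 to 0.0571). Prelp lost its call without mutant GFP-positive replicate 1, control GFP-positive replicate 1, mutant GFP-negative replicate 2 or 3 or control GFP-negative replicate 2 (adjusted p 0.0523 to 0.0664). Rgs16 kept it only without mutant GFP-positive replicate 3, control GFP-positive replicate 1 or 2 or mutant GFP-negative replicate 1 (otherwise adjusted p 0.051 to 0.0794), and lost it with array weights (adjusted p = 0.0581).

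**Figure D4:**
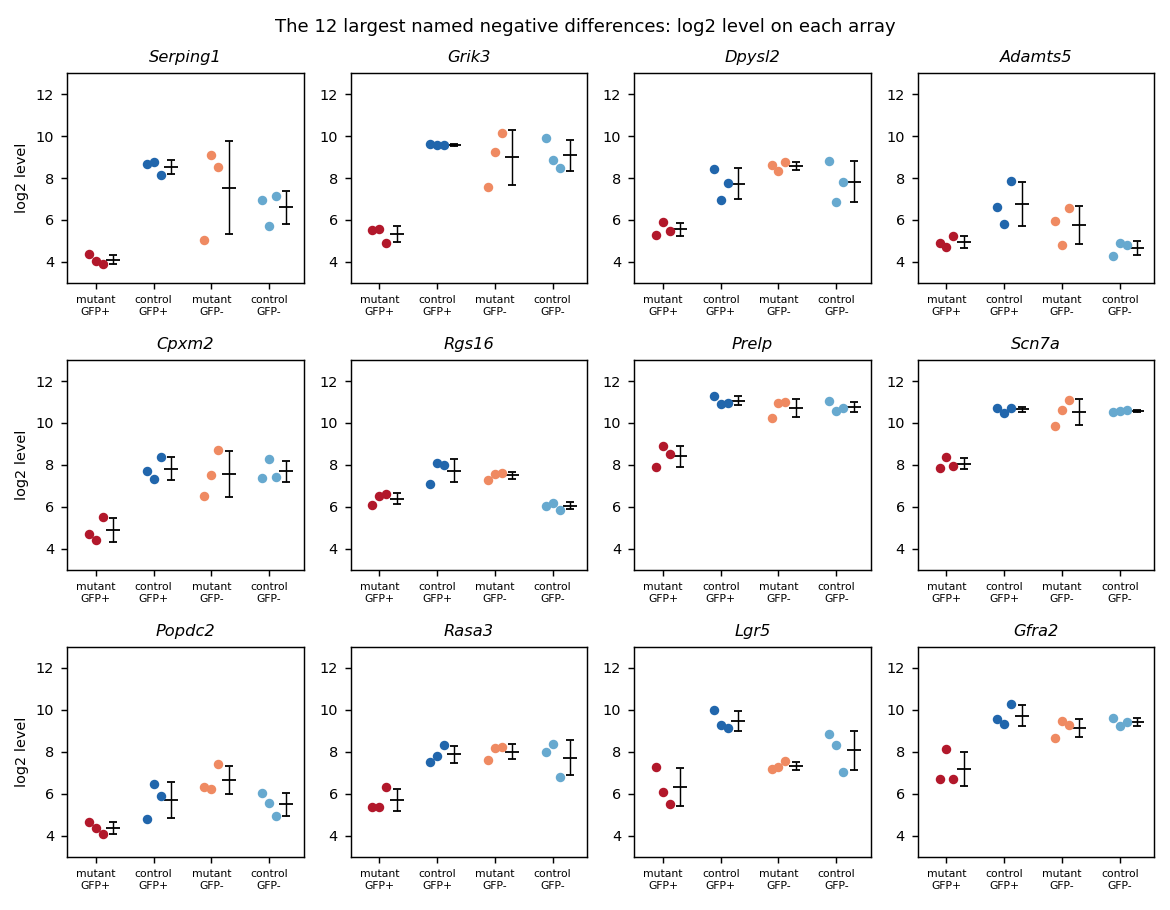
Log2 level on each array (points) with the mean and standard deviation of 3 arrays (bars) in the 4 basal groups for the 12 named genes with the largest negative difference of effects. Grik3, Scn7a, Prelp, Rasa3 and Gfra2 are lowest in mutant GFP-positive cells, Rgs16 is low in mutant GFP-positive and control GFP-negative cells, and Lgr5 is highest in control GFP-positive cells.

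Lists of basal, stem cell and fate genes held 1 called member each, where 1.07% of all genes were called. Of 25 basal and myoepithelial genes 1 was called lower, Myocd, a coactivator of smooth muscle genes, which was dim in all 4 groups with means of 3.91 in mutant GFP-positive, 4.32 in control GFP-positive, 4.04 in mutant GFP-negative and 3.89 in control GFP-negative arrays. Its difference was -0.56 ± 0.12 (adjusted p = 0.0318). Lgr5 was the 1 of 30 Wnt and Lgr5-type stem cell genes called; the list median was -0.16, and of its 30 members 10 had a positive difference. Those with the smallest p after Lgr5 were Sox9 at 0.83, Wif1 at -1.87 and Znrf3 at -1.92, and none of these was called (adjusted p = 0.0767, 0.0901 and 0.105). Ltbp2, a latent TGF-beta binding protein, was the 1 of 26 TGF-beta and BMP genes called (-1.73 ± 0.41, adjusted p = 0.0485), and Foxc2, also dim, the 1 of 14 mesenchymal transition factors (-0.44 ± 0.10, adjusted p = 0.0424). Crim1, a membrane protein that binds BMPs, was the 1 of 14 YAP and TEAD targets called (2.39 ± 0.56, adjusted p = 0.0471). Peg3, an imprinted zinc finger gene, was the 1 of 13 imprinted genes called (-1.98 ± 0.44, adjusted p = 0.0364). It had 5.66, 6.60 and 5.30 in mutant GFP-positive arrays, all below the 7.88, 7.94 and 6.66 of control GFP-positive arrays. Its mean of 5.85 in mutant GFP-positive cells was near the GFP-negative means, 5.65 in the mutant and 5.31 in the control. Control GFP-positive cells, at 7.49, were the group that stood apart. Each of Myocd, Ltbp2, Foxc2, Crim1 and Peg3 lost its call without any 1 of 8 to 10 of the 12 arrays (adjusted p 0.0515 to 0.126). Array weights ended all 5 calls (adjusted p 0.0521 to 0.0712), quantile normalization those of Myocd, Foxc2 and Crim1 (0.0553, 0.0636 and 0.0664), and median centring those of Myocd, Foxc2 and Ltbp2 (0.054, 0.0588 and 0.076). That of Ltbp2 ended with the trend and robust variance prior too (0.0583). The arrays that could be left out with the call kept were control GFP-positive replicate 2 for all 5, and also control GFP-positive replicate 1, mutant GFP-negative replicate 2 and control GFP-negative replicate 3 for Myocd. For Ltbp2 there was also control GFP-negative replicate 1, for Foxc2 control GFP-negative replicate 3, and for Crim1 control GFP-positive replicate 1 and control GFP-negative replicate 3. For Peg3 there were also mutant GFP-positive replicate 2, control GFP-positive replicate 3 and mutant GFP-negative replicate 3.

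Immediate early and dissociation stress genes had 1 of 20 called lower and 0 higher, against 0.301% and 0.772% of all genes. Their median was -0.36. Junb, an AP-1 subunit, had 9.21, 9.34 and 9.11 in mutant GFP-positive and 9.93, 10.004 and 9.85 in control GFP-positive arrays. It had 9.50, 9.74 and 9.75 in mutant and 9.66, 9.53 and 9.55 in control GFP-negative arrays. The GFP-positive arrays bracketed the GFP-negative ones from below in the mutant and from above in the control, and the difference was -0.79 ± 0.13 (adjusted p = 0.00538, or 0.0546 with a trend and robust variance prior). Fos and Btg2 had -0.97 and -0.85 and were not called (adjusted p = 0.0648 and 0.0636).

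Other lists had no called member by limma. Cell cycle genes had a median of 0.39, with 1 of 28 at an unadjusted p under 0.05, and the median fell to -0.03 in 1 alternative. The medians were 0.37 for 20 sterol and fatty acid synthesis genes, 3 of them at an unadjusted p under 0.05, and 0.34 for 14 glycolysis genes, 5 of them. Those of 14 ERK feedback genes (2 at an unadjusted p under 0.05), 18 interferon and class I genes (1) and 12 ribosomal protein genes (0) were 0.05, -0.14 and 0.02, of which the first and the last turned negative in 5 and 1 alternatives. Across all genes 2778 of 19937 had an unadjusted p under 0.05.

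**Figure D5:**
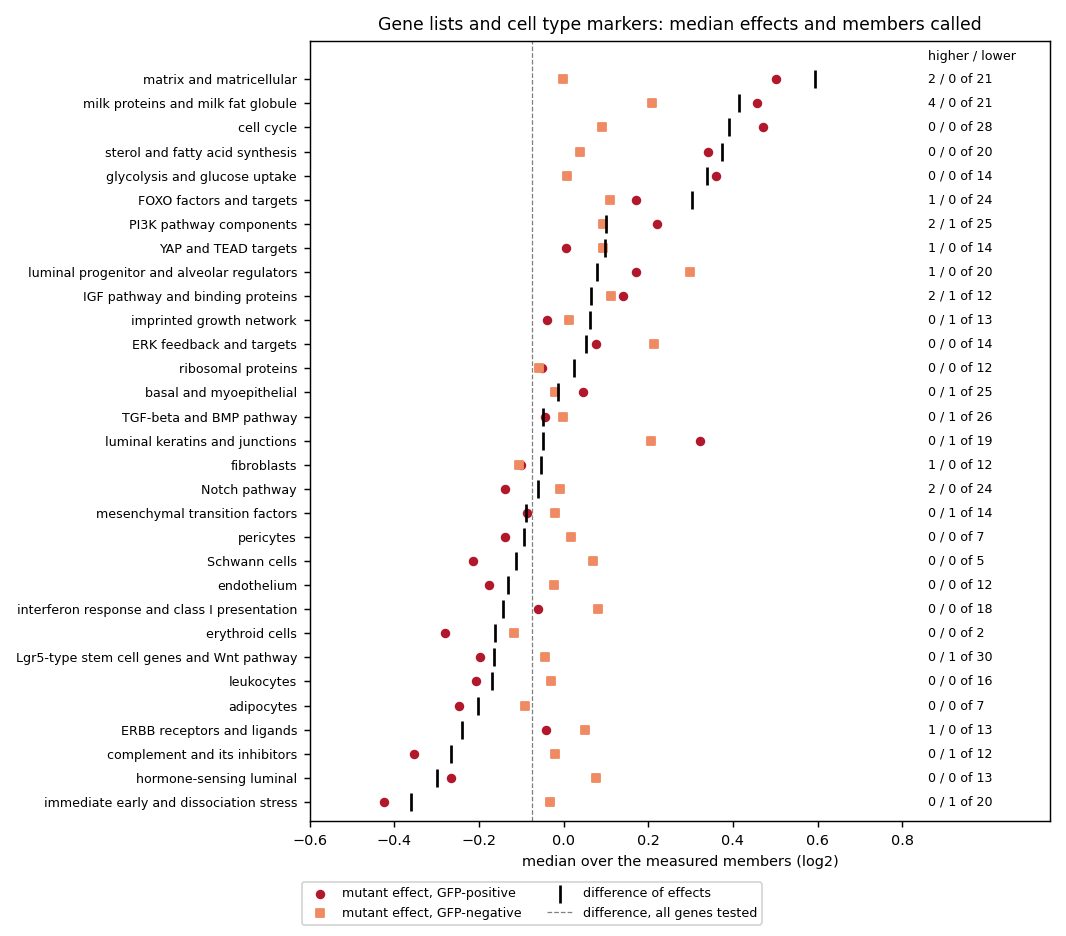
For each gene list and marker list, the median over its measured members (log2) of the mutant effect in GFP-positive cells (red circles), of that in GFP-negative cells (orange squares) and of the difference of effects (black bars), with the median difference over all genes as a dashed line and the members called higher and lower at the right. Matrix genes have the highest median, 0.59, and immediate early genes the lowest, -0.36.

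Markers of other cells were mostly near background. Of 16 leukocyte markers 15 were dim in all basal groups, and their summed level on the log2 scale was 8.34 to 8.56 in mutant GFP-positive, 8.46 to 8.65 in control GFP-positive, 8.32 to 8.80 in mutant GFP-negative and 8.31 to 8.47 in control GFP-negative arrays. No marker of leukocytes, endothelium, pericytes, adipocytes, Schwann cells or erythroid cells was called by limma, with 1 of 16, 2 of 12, 1 of 7, 0 of 7, 0 of 5 and 0 of 2 at an unadjusted p under 0.05. Fibroblast markers had 1 of 12 members called, Dcn, which encodes the proteoglycan decorin and is also made by some epithelial cells. Dcn had 10.84, 11.22 and 11.25 in mutant GFP-positive arrays and 6.76, 6.94 and 6.71 in control GFP-positive arrays, with 10.05, 9.62 and 7.27 in mutant and 9.32, 10.69 and 7.95 in control GFP-negative arrays. Control GFP-positive arrays were the lowest and the difference was 4.64 ± 0.97 (adjusted p = 0.0247), lost without any 1 of 4 arrays (mutant GFP-positive replicate 2 or 3, control GFP-positive replicate 3 or control GFP-negative replicate 2; adjusted p 0.0514 to 0.059). The summed level of the 12 fibroblast markers, on the log2 scale, was 11.27 to 11.72 in mutant GFP-positive, 8.79 to 9.17 in control GFP-positive, 8.87 to 10.84 in mutant GFP-negative and 9.27 to 11.14 in control GFP-negative arrays. That sum follows its strongest members, and Dcn alone had a mean of 11.11 in mutant GFP-positive arrays. Over the 12 markers the median difference was -0.05, with 4 positive and 8 negative. Pdgfra, Lum and Dpt, defining markers of fibroblasts, were dim in every basal group. With them 5 of the 12 were dim throughout, while 7, among them Col1a1, Col1a2 and Col3a1, were not. At an unadjusted p under 0.05 there were 5 of 12, of which Dcn, Fbln2 and Col1a2 were positive and Pi16 and Dpt negative. The part of fibroblast RNA in the results was not tested.

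Luminal arrays share no array with the contrast and give separate values for the called genes, though the spread of each gene is estimated from all 24 arrays. There mutant cells were GFP-positive and control cells GFP-negative. Of the 154 genes called higher, 8 were called higher and 1 lower in Sca1-negative luminal cells, where 0.557% and 0.171% of all genes were called. Their median mutant effect was 0.19, against -0.04 over all genes, and 77.9% were positive, against 41.1%. In Sca1-positive luminal cells 5 were called higher and 2 lower (background 0.401% and 0.376%), the median was 0.08, against 0.00, and 60.4% were positive, against 49.8%. All but 3 of the 154 had a mean above the dim threshold in some basal group. Over the 11434 tested genes of that kind, the median mutant effect was 0.03 in both luminal comparisons. Over the 8503 dim genes it was -0.06 in Sca1-negative and -0.01 in Sca1-positive cells. The share of positive effects was not taken for the 11434 genes alone, so the percentages above compare sets of unlike level. Csn2 was the gene called higher in both, at 3.44 and 6.05, and Dcn the gene called lower in both, at -3.29 and -3.01. Dcn thus had opposite signs in GFP-positive basal cells and in luminal cells, a difference that was not tested.

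The other genes called higher in Sca1-negative luminal cells were Pgf, the placental growth factor (3.71), Nrg1 (2.75), Car12, a membrane carbonic anhydrase (1.39), Lama4, a laminin chain (1.39), Reep5 (1.34), Ntrk2, the BDNF receptor (0.67), and Dach1 (0.51). In Sca1-positive cells they were Il33 (2.86), Nid1 (2.44), Lurap1l (1.70) and Pxdn, the peroxidasin that crosslinks collagen IV (1.20), while Stt3a, an oligosaccharyltransferase subunit, was lower (-0.86). None of the 60 genes called lower was called by limma in either luminal comparison. With background shares as low as those given above, this absence does not set the 60 genes apart. At an unadjusted p under 0.05 there were 7 of them in Sca1-negative and 5 in Sca1-positive cells. The counts over the 19937 tested genes were 2213 and 1542, a share close to that of the 60 in each. The median effects of the 60 were -0.10 and 0.01, against -0.04 and 0.00 for the tested genes.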

How the data were processed

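Total RNA of 250 sorted cells per sample was amplified, labelled and hybridised, per the labels' protocols, and the authors deposited 1 table of log2 expression values, with a row for each probe set and a column for each array. The submitters' processing notes name affy, and the background correction, normalization and summarization are not given in the sources used here. Deposited log2 values ran from 2.586 to 13.54 and were used unchanged. GEO's platform annotation gave 1 symbol to 21640 of 34760 probe sets; by Entrez identifier, 21553 were found in GRCm38.p6. The other 13120 were fitted apart. Several probe sets measured 954 genes, and that of highest mean over 24 arrays was kept.

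Using limma 3.58.1 in R 4.3.3, a mean was fitted for each of 8 groups (lmFit, 16 residual degrees of freedom), followed by eBayes. Tests were two-sided, adjusted by Benjamini-Hochberg over 19937 genes within a contrast. Levels carry standard deviations of 3 arrays, and the number of arrays limits the precision. Replicates were pools from separate sortings, so p-values set a difference against the spread between pools, assumed equal across groups.

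Named genes were, of those called, the 12 each way with the largest difference among genes whose GFP-positive arrays did not overlap the GFP-negative ones in the mutant or in the control. Predicted genes, clones, odour and pheromone receptors, small RNAs and immune receptor segments were left out. Up to 3 called members per list with the smallest p were added, together with 16 genes always named. The groups compared, gene lists, markers and alternatives were chosen with earlier results of these data known. Lists are described by counts and medians, without a test. Promoter windows came from RefSeq, where an entry existed. The code was tested on simulated data. The replicate numbers of the groups were checked for pairing: 18 correlations of same-numbered arrays lay between -0.0823 and 0.0624, none over 0.1, so the numbers were not taken as pairs. Alternatives were a fit of the basal arrays alone, quantile normalization, median centring, dim genes left out, averaged probe sets, array weights, another variance prior, a replicate block and each basal array left out.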

Additional observations from a re-analysis of the deposited data

Results flagged for a closer look

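The contrast itself tests whether the mutant effect differs between the GFP fractions, and it called 154 genes higher and 60 lower. Of the genes in the naming rule, the following passed that test, given by their log2 difference of effects.

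Among positive differences were Isca1 at 5.8, Them5 at 5.16, Sostdc1 at 4.94, Elovl4 at 4.88, Csn3 at 4.75, Csn2 at 4.7, Dcn at 4.64, Il24 at 4.44, Arhgap24 at 4.38 and Fndc1 at 4.13. Il33 had 3.9, Ccl7 3.88, Nid1 3.77, Ehf 3.35, Mfge8 3.01, Nrg1 2.84, Igfbp4 2.8, Sesn3 2.65, Pik3r3 2.63, Jag1 2.4, Crim1 2.39 and Igfbp2 2.19. Smaller ones were Col4a5 at 1.66, Numb at 1.65 and Pik3ca at 1.35.

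Among negative differences were Serping1 at -5.37, Grik3 at -4.16, Dpysl2 at -2.93, Adamts5 at -2.91, Cpxm2 at -2.81, Rgs16 at -2.78, Prelp at -2.59, Scn7a at -2.52, Popdc2 at -2.51 and Rasa3 at -2.49. Lgr5 had -2.43, Gfra2 -2.27, Igf1r -2.2, Peg3 -1.98, Cldn3 -1.8, Ltbp2 -1.73, Junb -0.79, Myocd -0.556 and Foxc2 -0.438.

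Outside the gene tests, 4 of the 13120 probe sets without a single symbol were called higher (0.0305%) and 1 lower (0.00762%).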

How the results depend on the processing

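Over 20 alternatives, 39 genes kept a higher call and 3 a lower call under each one. The fit of only the 12 basal arrays called 46 genes higher (44 of them among the 154) and 7 lower (6 of the 60), or 86.8% higher against 72% with all arrays. It has 8 residual degrees of freedom in place of 16, and its spread leaves out the luminal arrays. Arrays centred on their median gave 175 higher and 37 lower, or 82.5% higher, and array weights 39 lower. Quantile normalization gave 121 and 62. With single arrays left out, the higher count ranged from 113 to 302 and the lower from 32 to 286; both maxima came without control GFP-positive replicate 2, where 51.4% were higher, and the cause was not tested. The replicate block called 154 higher and 56 lower, sharing 140 and 50 genes, and ended the calls of Pik3ca (adjusted p = 0.0508), Ltbp2 (0.0508) and Crim1 (0.0706) among named genes; in 2 of the 6 group pairs every array correlated best with its own number. Krt14, never called, changed sign to 0.0150 with median centring (adjusted p = 0.997) and ranged from -0.134 to 0.0329 with single arrays left out, the positive value without mutant GFP-negative replicate 3 (adjusted p = 0.99). Notch1 was called without control GFP-negative replicate 3 (1.70). No called gene of the naming rule changed sign. Of those 44 genes, 11 kept the call under each alternative, and 31 lost it in the fit of only the basal arrays. Amplified RNA of few cells and 3 arrays per group limit the precision, and signal near background limits the size of differences in dim genes.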

Other observations

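Genes given here were chosen after their values were seen. Among genes called higher with control GFP-positive cells farthest from the rest were Uqcr10 and Cox6a1 of the respiratory chain and Atp5l and Atp5b of the ATP synthase, which are given singly and not as a result about their families. Uqcr10 had mean levels of 11.3 in mutant GFP-positive and 9.9 in control GFP-positive cells, and 10.7 in both GFP-negative groups. The differences were 1.41 ± 0.30 for Uqcr10, 1.18 ± 0.16 for Atp5l, 0.69 ± 0.16 for Atp5b and 0.58 ± 0.10 for Cox6a1. The chaperones Calr and Pdia3 of the endoplasmic reticulum (0.86 ± 0.19 and 1.09 ± 0.21) and Stt3a, an oligosaccharyltransferase subunit (1.17 ± 0.25), had the same order of groups.

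Among genes called higher with mutant GFP-positive cells farthest above the rest were several cell surface molecules, also given singly. Cntn2, a contactin, differed by 2.30 ± 0.27, Plxna2, a semaphorin receptor, by 2.10 ± 0.26, and Robo2, a Slit receptor, by 1.36 ± 0.23. Ncam1 and Cdh10, adhesion molecules, differed by 0.91 ± 0.13 and 1.21 ± 0.22. Tlr2, a receptor for bacterial lipoproteins, differed by 3.39 ± 0.50, and Vcam1, a ligand for leukocyte integrins, by 3.33 ± 0.78. Hmox1, the inducible haem oxygenase, differed by 3.57 ± 0.58. In some called genes a GFP-negative group lay farthest from the rest, with the shares given above. Tceal5 had mean levels of 4.2 in mutant GFP-positive and 3.9 in control GFP-positive cells, with 3.8 in mutant and 5.1 in control GFP-negative cells (1.50 ± 0.25). Hdgfl3 had 5.2 in mutant and 5.3 in control GFP-positive cells, and 6.6 in mutant and 5.5 in control GFP-negative cells (-1.34 ± 0.21).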
